A study of Danio rerio with 11 samples.

Results

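The genes described here are regulators of the zebrafish tailbud and presomitic mesoderm: the T-box genes tbxta, tbx16, tbx16l and tbx6, the basic helix-loop-helix gene msgn1, the signalling genes wnt8a, wnt3 and fgf8a, the homeobox gene cdx4 and the retinoic acid-degrading enzyme gene cyp26a1. They were chosen by name for their known place in the growing tail, with earlier results of these data known. Their shares set beside those of all genes are therefore descriptions. Of the 10 names, 9 were found in the count table, as 10 of its 23617 gene identifiers, because 2 identifiers carry the symbol FGF8 and the symbol table does not say which of them is fgf8a. Both are given, with their identifiers. No identifier was paired with wnt8a, which was not analysed here. All 10 identifiers passed the filter on low counts.

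RNA was counted in 11 libraries, each from a pool of 5 tails cut behind the yolk sac of zebrafish embryos at 24 hours post fertilisation (hpf). Line 23095 had 3 libraries of lsd1 mutants (replicates 1, 2 and 4) and 2 of wildtype siblings (replicates 1 and 2), and line 36433 had 3 of lsd1 mutants and 3 of wildtype siblings. Lsd1, encoded by kdm1a, is a histone demethylase that mostly represses transcription. The labels give each line by number and each pool as mutant or wildtype. They do not give the lesion of either line, the zygosity of the mutants or whether pools came from separate clutches.

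Vertebrate tails grow from a pool of progenitors in the tailbud. Wnt and Fgf signals from the posterior end and T-box factors keep these progenitors and guide their entry into the presomitic mesoderm, the unsegmented tissue from which somites form. Retinoic acid made by the somites opposes this programme, and Cyp26a1 breaks it down in the tailbud.

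Total counts ran from 8204459 in 23095 mutant replicate 2 to 17195875 in 23095 wildtype replicate 1. Levels are CPM, counts scaled to a common library size after TMM, and are compared between libraries for 1 gene, not between genes, since gene lengths were not used. Transcripts of kdm1a (KDM1A, ENSDARG00000060679) were read as a check of the labels. Levels were 130, 170 and 130 CPM in 23095 mutants against 124 and 142 CPM in 23095 wildtypes, and 36.9, 34.2 and 34.8 CPM in 36433 mutants against 162, 155 and 135 CPM in 36433 wildtypes. Only in line 36433 did the mutants stand below the wildtypes. Since the lesions are not given, kdm1a levels cannot decide the labels of line 23095. The 23095 wildtypes stood apart from all other libraries in the summed level of 26 skeletal muscle identifiers, at 150076 and 134406 CPM, while the other 9 libraries held 51441 to 99152 CPM.

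In tails of line 23095, tbx16 and tbx6 were called higher in the mutants than in their wildtype siblings. The calls depended on the libraries in the fit, and neither held in a fit of the 23095 libraries alone. Levels of msgn1, cdx4, cyp26a1 and the more abundant FGF8 identifier were also higher in each of the 3 mutant libraries than in either wildtype library, without passing the threshold. Those of tbxta and wnt3 were nearly equal in mutants and wildtypes. For tbx16 and tbx6 the 23095 wildtypes were the lowest group and did not overlap the wildtypes of the other line. The mutants of both lines overlapped for these genes. The bulk counts cannot tell fewer cells of a type from less RNA per cell.

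The gene tbx16 (ENSDARG00000007329) encodes the Spadetail T-box factor, which directs progenitors out of the tailbud into paraxial mesoderm. It had 15.4, 20.2 and 28.2 CPM in 23095 mutants against 5.68 and 5.90 CPM in 23095 wildtypes. The wildtype pair differed by only 1.04-fold, and the lowest mutant library was well above both. The log2 fold change was 1.88 with a standard error (SE) of 0.35, a 3.68-fold difference. Its adjusted p = 0.0322 by the edgeR quasi-likelihood test, with the Benjamini-Hochberg method applied over all 20886 genes tested.

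The gene tbx6 (ENSDARG00000011785), a T-box factor of the presomitic mesoderm needed for somite segmentation, had 6.32, 48.7 and 17.7 CPM in 23095 mutants against 1.58 and 2.64 CPM in 23095 wildtypes. These rest on 106, 376 and 314 counts in the mutants against 25 and 39 counts in the wildtypes. The 3 mutant libraries spread over 7.70-fold, although none overlapped the wildtypes. The log2 fold change was 3.49 (SE 0.76, adjusted p = 0.0433 by the edgeR quasi-likelihood test). Without 23095 mutant replicate 2, which held the 48.7 CPM, it was 2.51 (adjusted p = 0.0543).

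The gene msgn1 (ENSDARG00000070546), whose product drives progenitors towards presomitic mesoderm fate, had 9.84, 14.0 and 39.5 CPM in 23095 mutants against 1.89 and 5.36 CPM in 23095 wildtypes. Both groups spread widely but did not overlap. The log2 fold change of 2.56 (SE 0.61) missed the threshold in the edgeR quasi-likelihood test (adjusted p = 0.0566). It was 1.68 without 23095 mutant replicate 4 (adjusted p = 0.15) and 3.49 without 23095 wildtype replicate 2 (adjusted p = 0.103), the ends of its range over fits that each left out 1 library. Without 23095 mutant replicate 1 it was called, at 2.90 (adjusted p = 0.0252).

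The gene tbx16l (ENSDARG00000006939), a T-box relative of tbx16 transcribed in the same tissue, had 3.22, 8.94 and 12.4 CPM in 23095 mutants against 1.96 and 5.02 CPM in 23095 wildtypes. Here mutant replicate 1 lay between the wildtype libraries, and the log2 fold change was 1.23 (SE 0.67, adjusted p = 0.381 by the edgeR quasi-likelihood test). It was 0.70 without 23095 wildtype replicate 1, 0.71 without 23095 mutant replicate 4 and 2.05 without 23095 wildtype replicate 2, and was called in 0 of 11 fits that each left out 1 library.

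The gene tbxta (ENSDARG00000101576), the Brachyury homolog of tailbud progenitors and notochord, had 56.4, 57.0 and 49.3 CPM in 23095 mutants against 56.4 and 50.6 CPM in 23095 wildtypes. The groups overlapped almost completely, with a log2 fold change of 0.02 (SE 0.14, adjusted p = 0.968 by the edgeR quasi-likelihood test). Markers of the notochord, which also transcribes tbxta, had a summed level over 16 identifiers of 5633, 9633 and 3874 CPM in 23095 mutants against 7419 and 6085 CPM in 23095 wildtypes. Of 15 notochord markers tested, none was called in this comparison, where 1.63% of all genes were.

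Of the caudal and signalling genes, cdx4 (ENSDARG00000036292), a caudal-type homeobox factor of the posterior body, had 30.4, 24.4 and 61.7 CPM in 23095 mutants against 10.3 and 18.8 CPM in 23095 wildtypes. The groups did not overlap, with mutant replicate 4 far above the other mutants. The log2 fold change was 1.43 (SE 0.36, adjusted p = 0.0635 by the edgeR quasi-likelihood test). Over fits that each left out 1 library it ran from 0.89 without mutant replicate 4 (adjusted p = 0.163) to 1.93 without wildtype replicate 2 (adjusted p = 0.0994). The fit without mutant replicate 2 called it, at 1.66 (adjusted p = 0.0379).

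The more abundant of the identifiers for FGF8 (ENSDARG00000003399), the ligand whose posterior gradient keeps presomitic mesoderm immature, had 13.7, 9.20 and 20.9 CPM in 23095 mutants against 7.26 and 8.48 CPM in 23095 wildtypes. It was higher in every mutant library, by 0.91 on the log2 scale (SE 0.28, adjusted p = 0.124 by the edgeR quasi-likelihood test). The difference was 0.54 without mutant replicate 4, and 1.14 and called without mutant replicate 2 (adjusted p = 0.0381). The other FGF8 identifier (ENSDARG00000039615) rested on 2 to 20 counts in this line, with 1.13, 0.259 and 0.734 CPM in 23095 mutants against 1.26 and 0.949 CPM in 23095 wildtypes. Its log2 fold change was -0.54 (SE 0.51), with overlapping groups.

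The Wnt ligand gene wnt3 (ENSDARG00000038990) had 2.03, 1.81 and 1.52 CPM in 23095 mutants against 1.83 and 1.70 CPM in 23095 wildtypes, on 14 to 34 counts a library. Its log2 fold change was 0.02 (SE 0.44). The gene cyp26a1 (CYP26A1, ENSDARG00000033999) had 14.4, 15.03 and 13.5 CPM in 23095 mutants against 10.4 and 10.7 CPM in 23095 wildtypes. Its groups were narrow and did not overlap, yet the log2 fold change of 0.44 (SE 0.25, adjusted p = 0.415 by the edgeR quasi-likelihood test) was small.

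Over the 10 identifiers in line 23095, 2 were called higher and 0 lower at an adjusted p under 0.05 (edgeR quasi-likelihood test), where 1.63% of all tested genes were called in either direction and 0.694% higher. An unadjusted p under 0.05 was reached by 5 of 10, against 16.8% of all genes. In 6 of 10 every mutant library was above every wildtype library, against 16.4% of all genes, and in 0 of 10 was every one below, against 17.4%. The median log2 fold change was 1.07 over the 10 and 0.02 over all tested genes.

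These calls depended on the libraries in the fit, as did the number of all genes called. The log2 fold change of tbx16 itself was 1.85 without 23095 wildtype replicate 1 and 1.91 without 23095 wildtype replicate 2, beside 1.88 in the full fit. The call of tbx16 was lost without 23095 wildtype replicate 1 (adjusted p = 0.309), 23095 wildtype replicate 2 (0.118), 23095 mutant replicate 4 (0.087) or 36433 mutant replicate 1 (0.0503), in the edgeR quasi-likelihood test, with log2 fold changes from 1.58 to 2.05 over the 11 fits that each left out 1 library. That of tbx6 held in 3 of those 11 fits, without 23095 mutant replicate 1, 36433 wildtype replicate 1 or 36433 wildtype replicate 3, and its log2 fold change ran from 2.51 to 3.93. In a fit of the 23095 libraries alone neither was called (adjusted p = 0.0848 for tbx16 and 0.131 for tbx6).

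Muscle markers moved with the 23095 groups. Their summed level was 99152, 93974 and 69037 CPM in 23095 mutants against 150076 and 134406 CPM in 23095 wildtypes. Of 25 tested, 0 were called higher and 2 lower (TNNT3 and pvalb1), where 1.63% of all genes were called in either direction. Every mutant library was below every wildtype library for 15 of the 25, where 17.4% of all genes were, with a median log2 fold change of -0.67. For 2 of the 25 every one was above, against 16.4% of all genes. Within the 23095 mutants, replicate 4 had the lowest muscle sum and the highest tbx16, tbx16l, msgn1, cdx4 and FGF8 (ENSDARG00000003399). Within the 36433 mutants, replicate 2 had the highest muscle sum, 88520 CPM, and the lowest tbx16, tbx16l, tbx6, msgn1 and cdx4. Of the 23095 wildtypes, replicate 1 had the higher muscle sum and the lower level for 7 of the 10 identifiers. Within the 36433 wildtypes, by contrast, replicate 1 had the highest muscle sum, 89323 CPM, and also the highest tbx16, tbx16l, tbx6 and cdx4. No muscle marker was at 0 throughout a group. The part of muscle content in the differences of tbx16, tbx6 and the others was not tested.

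**Figure D1:**
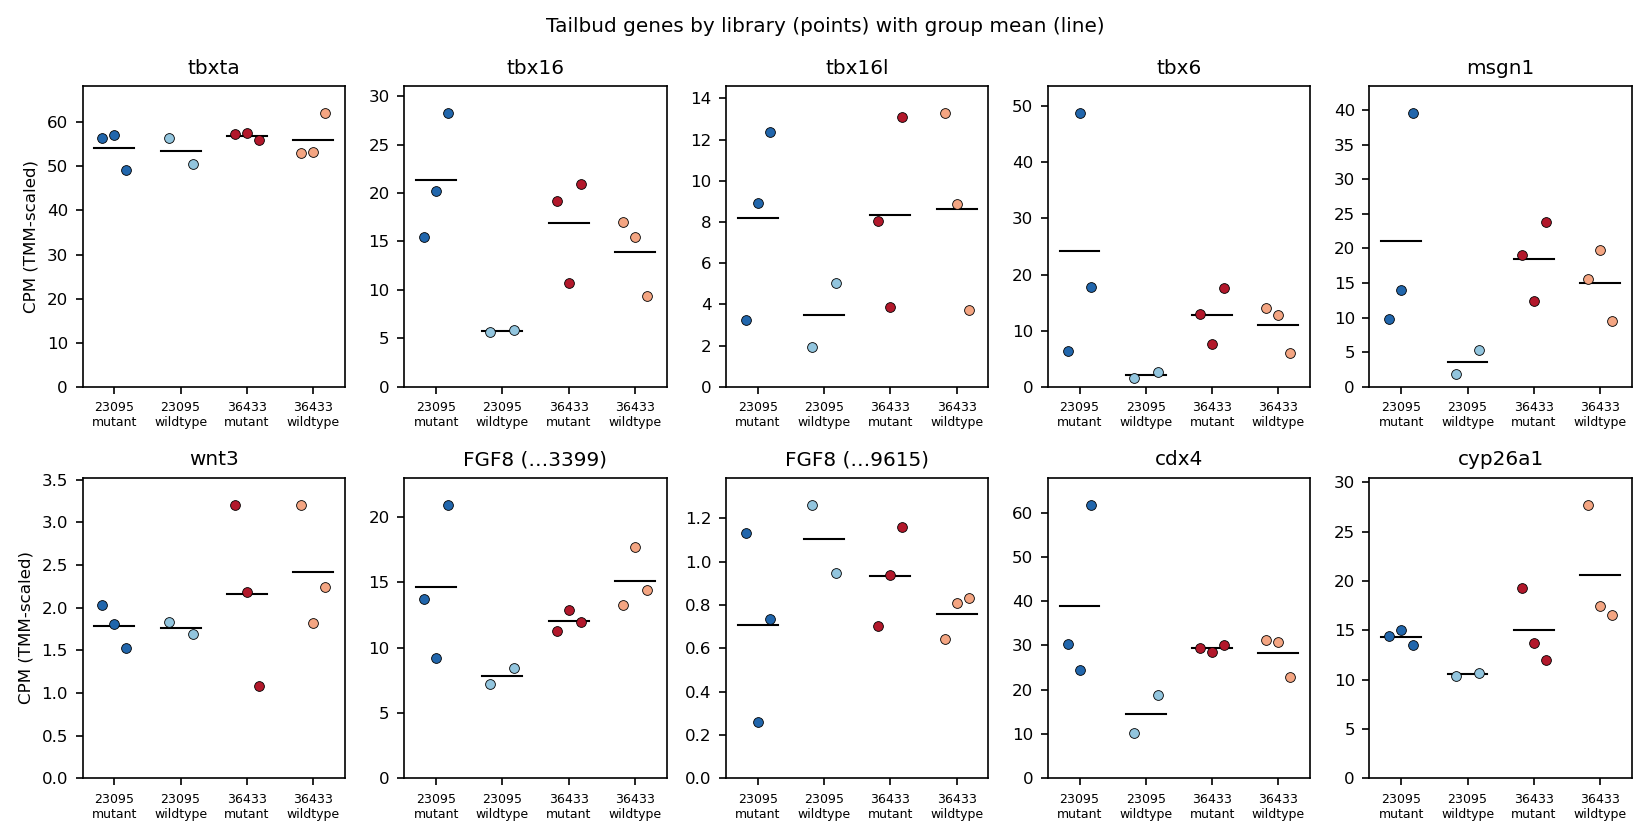
Level of each tailbud gene (vertical axis, TMM-scaled CPM, from 0) in each library (points, in order of replicate number), with the group mean as a line, for 23095 mutants, 23095 wildtypes, 36433 mutants and 36433 wildtypes from left to right. For tbx16, the 23095 mutants lie at 15.4 to 28.2 CPM and the 23095 wildtypes at 5.68 and 5.90 CPM, while for tbxta all 11 libraries lie at 49.3 to 62.0 CPM.

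In line 36433, none of the tailbud genes was called between mutants and wildtypes. Levels of tbxta, tbx16, tbx6, msgn1 and cdx4 in mutants lay within or close to the range of the wildtypes. The largest differences were lower means of cyp26a1 and FGF8 (ENSDARG00000003399) in the mutants, neither past the threshold. This is the line in which kdm1a transcripts themselves were lower in the mutants.

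For tbx16, 36433 mutants had 19.2, 10.7 and 20.9 CPM against 17.1, 15.5 and 9.34 CPM in 36433 wildtypes, a log2 fold change of 0.28 (SE 0.29, adjusted p = 0.889 by the edgeR quasi-likelihood test). For tbx6, 36433 mutants had 13.0, 7.63 and 17.7 CPM against 14.0, 12.8 and 6.08 CPM in 36433 wildtypes, a log2 fold change of 0.22 (SE 0.56). For msgn1, 36433 mutants had 19.0, 12.4 and 23.8 CPM against 15.6, 19.8 and 9.47 CPM in 36433 wildtypes, a log2 fold change of 0.30 (SE 0.47). In all 3 genes the groups overlapped, and mutant replicate 2 and wildtype replicate 3 were the lowest of their groups.

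For tbx16l, 36433 mutants had 8.04, 3.88 and 13.1 CPM against 13.3, 8.88 and 3.71 CPM in 36433 wildtypes, a log2 fold change of -0.05 (SE 0.55). For tbxta, 36433 mutants had 57.2, 57.5 and 55.9 CPM against 53.0, 53.2 and 62.0 CPM in 36433 wildtypes, a log2 fold change of 0.02 (SE 0.13). The first spread by 3.38-fold among the mutants and the second by 1.03-fold. For cdx4, 36433 mutants had 29.4, 28.5 and 30.0 CPM against 31.2, 30.9 and 22.8 CPM in 36433 wildtypes, a log2 fold change of 0.05 (SE 0.30).

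For FGF8 (ENSDARG00000003399), 36433 mutants had 11.2, 12.9 and 11.9 CPM against 13.3, 17.7 and 14.4 CPM in 36433 wildtypes, the one identifier of the 10 whose groups did not overlap in this line. Its log2 fold change was -0.33 (SE 0.24, adjusted p = 0.832 by the edgeR quasi-likelihood test). For cyp26a1, 36433 mutants had 19.3, 13.7 and 12.02 CPM against 27.7, 17.5 and 16.5 CPM in 36433 wildtypes, a log2 fold change of -0.46 (SE 0.22, adjusted p = 0.754). Only mutant replicate 1 reached the wildtype range.

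The 2 genes of lowest count gave no clearer picture. For wnt3, 36433 mutants had 3.20, 2.19 and 1.09 CPM against 3.21, 1.82 and 2.24 CPM in 36433 wildtypes, on 15 to 50 counts a library. For FGF8 (ENSDARG00000039615), 36433 mutants had 0.703, 0.938 and 1.159 CPM against 0.641, 0.807 and 0.832 CPM in 36433 wildtypes, on 9 to 16 counts a library. Both pairs of groups overlapped.

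Of the 10 identifiers, 0 were called in line 36433 (edgeR quasi-likelihood test) where 0.168% of all tested genes were, and 0 had an unadjusted p under 0.05 where 6.75% of all genes did. DESeq2 called 0 of the 10, and 0.573% of the genes to which it gave an adjusted p. In 0 of 10 was every mutant library above every wildtype library, against 7.23% of all genes, and in 1 of 10 was every one below, against 6.28%. The median log2 fold change was 0.04 over the 10 and -0.02 over all genes. Summed muscle markers overlapped as well, at 80398, 88520 and 80108 CPM in 36433 mutants against 89323, 51441 and 77025 CPM in 36433 wildtypes.

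**Figure D2:**
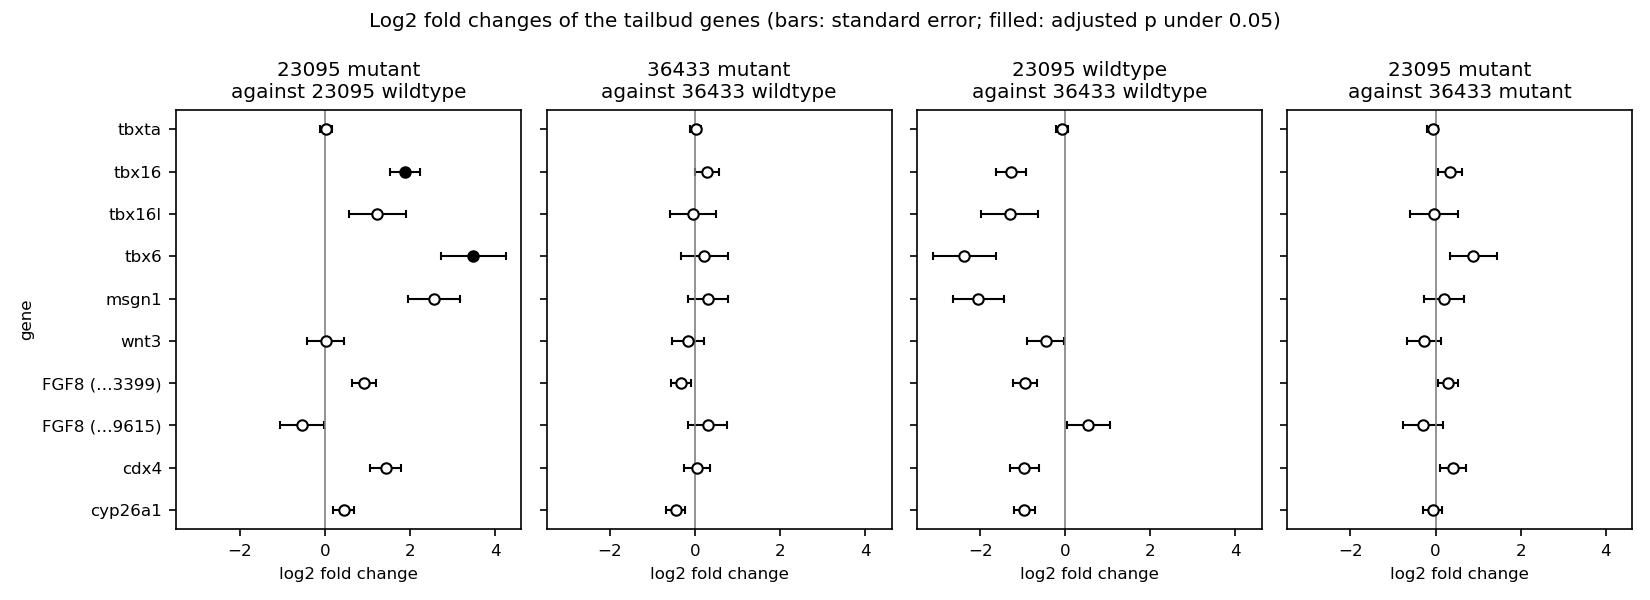
Log2 fold change of each tailbud gene (horizontal axis, first group minus second) in 4 comparisons, with its SE as a bar and filled points for an adjusted p under 0.05. Filled points appear for tbx16 (1.88) and tbx6 (3.49) in 23095 mutants against 23095 wildtypes, and the points for 36433 mutants against 36433 wildtypes lie between -0.46 and 0.30.

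Averaged over both lines, only tbx16 was called among the 10. Its mutant-minus-wildtype log2 fold change was 1.08 (SE 0.23, adjusted p = 0.0288 by the edgeR quasi-likelihood test), the mean of 1.88 in line 23095 and 0.28 in line 36433. That is 1 of 10 called, against 2.33% of all tested genes called in either direction and 1.3% higher, and 4 of 10 had an unadjusted p under 0.05, against 17.4%. The call held in 4 of the 11 fits without 1 library and was lost without 23095 wildtype replicates 1 or 2, 23095 mutant replicate 4, 36433 mutant replicates 1 or 3, or 36433 wildtype replicates 2 or 3, with log2 fold changes from 0.93 to 1.19 over the 11. The average was 1.85 for tbx6 (SE 0.47, adjusted p = 0.0572), 1.43 for msgn1 (SE 0.38, adjusted p = 0.073) and 0.74 for cdx4 (SE 0.23, adjusted p = 0.122), none of them called.

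The mutant effect was not shown to differ between the lines for any of the genes. The difference (line 23095 minus line 36433) was 3.27 for tbx6 (SE 0.93, adjusted p = 0.44 by the edgeR quasi-likelihood test), 2.26 for msgn1 (SE 0.76), 1.60 for tbx16 (SE 0.45), 1.37 for cdx4 (SE 0.46), 1.24 for FGF8 (ENSDARG00000003399, SE 0.37) and 0.89 for cyp26a1 (SE 0.33). These 6 had an unadjusted p under 0.05, where 7.59% of all genes did. After adjustment 0 of 10 were called, against 0.00958% of all genes. DESeq2 called 0 of 10, and 0.284% of the genes to which it gave an adjusted p. The median difference was 1.26 over the 10 and 0.03 over all tested genes.

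The wildtype siblings of the 2 lines, the baselines of the mutant comparisons, were set against each other. The 23095 wildtypes had lower levels of tbx16, tbx6, msgn1, cdx4, cyp26a1 and FGF8 (ENSDARG00000003399) than any of the 36433 wildtypes. None of these was past the threshold. This comparison and that within line 23095 share the 2 libraries of 23095 wildtypes, so their values are not independent.

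The log2 difference (23095 minus 36433 wildtypes) was -2.38 for tbx6 (SE 0.74, adjusted p = 0.169 by the edgeR quasi-likelihood test), where the means were 2.11 ± 0.754 CPM in 23095 wildtypes (SD, n = 2) and 10.97 ± 4.27 CPM in 36433 wildtypes (SD, n = 3). For msgn1 it was -2.05 (SE 0.60, adjusted p = 0.15), with 3.62 ± 2.45 CPM in 23095 wildtypes and 14.96 ± 5.18 CPM in 36433 wildtypes. For tbx16 it was -1.27 (SE 0.35, adjusted p = 0.129), with 5.79 ± 0.154 CPM in 23095 wildtypes and 14.0 ± 4.07 CPM in 36433 wildtypes. In these 3 genes of paraxial mesoderm entry, no 23095 wildtype library reached the lowest 36433 wildtype library. For msgn1 the difference was -1.48 without 23095 wildtype replicate 1 and -2.98 without 23095 wildtype replicate 2, and for tbx6 -2.05 and -2.79 in the same fits.

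The log2 difference between wildtypes was -0.96 for cyp26a1 (SE 0.25, adjusted p = 0.117), with 10.6 ± 0.211 CPM in 23095 wildtypes and 20.6 ± 6.20 CPM in 36433 wildtypes. It was also -0.96 for cdx4 (SE 0.35, adjusted p = 0.246), with 14.6 ± 6.05 CPM in 23095 wildtypes and 28.3 ± 4.78 CPM in 36433 wildtypes. That of cdx4 was -0.59 without 23095 wildtype replicate 1 and -1.46 without 23095 wildtype replicate 2. That of cyp26a1 was -0.68 without 36433 wildtype replicate 1 and -1.10 without 36433 wildtype replicate 3. For FGF8 (ENSDARG00000003399) it was -0.94 (SE 0.28, adjusted p = 0.156), with 7.87 ± 0.860 CPM in 23095 wildtypes and 15.1 ± 2.29 CPM in 36433 wildtypes. The level of tbxta was 53.5 ± 4.13 CPM in 23095 wildtypes and 56.1 ± 5.16 CPM in 36433 wildtypes, a difference of -0.07 (SE 0.14), smaller than the spread within either group.

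Between the wildtypes, 0 of 10 were called (edgeR quasi-likelihood test), against 0.393% of all tested genes, while 6 had an unadjusted p under 0.05, against 13.7% of all genes. DESeq2 called 2, tbx16 (adjusted p = 0.0219) and cyp26a1 (0.0271), and 2.52% of the genes to which it gave an adjusted p. In 6 of 10 every 23095 wildtype library was below every 36433 wildtype library, against 14.6% of all genes, and in 1 of 10, FGF8 (ENSDARG00000039615), every one was above, against 16.4%. The median was -0.96 over the 10 and -0.02 over all genes. Of 25 muscle markers tested in the same comparison, 0 were called, 13 were higher in every 23095 wildtype library than in any 36433 wildtype library and none was lower in all, with a median of 0.60, and the part of muscle content in the wildtype difference was not tested.

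The mutants of the 2 lines overlapped for each of the 10 identifiers. The log2 difference (23095 minus 36433 mutants) was 0.89 for tbx6 (SE 0.56, adjusted p = 0.517 by the edgeR quasi-likelihood test), 0.41 for cdx4 (SE 0.30), 0.34 for tbx16 (SE 0.29), 0.21 for msgn1 (SE 0.47) and -0.07 for cyp26a1 (SE 0.22). In this comparison 0 of 10 were called, against 1.13% of all genes, and 0 had an unadjusted p under 0.05, against 13.8%. DESeq2 called 0 of 10, and 2.5% of the genes to which it gave an adjusted p. In 0 of 10 were the groups apart, against 9.79% of all genes with 23095 mutants higher and 10.8% with them lower. The median was 0.09 over the 10 and 0.02 over all genes, and the median of the muscle markers was -0.02.

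Ranked by group mean, the 23095 wildtypes came lowest of the 4 groups for 9 of the 10 identifiers, FGF8 (ENSDARG00000039615) being the exception. For tbx16, tbx6, msgn1 and cdx4 the order ran from 23095 wildtypes through 36433 wildtypes and 36433 mutants to 23095 mutants. In each of these 4 only the first step, from 23095 wildtypes to 36433 wildtypes, separated groups that did not overlap. For cyp26a1 the 23095 wildtypes were followed by 23095 mutants, 36433 mutants and 36433 wildtypes, and again only the first step was free of overlap. For tbxta, tbx16l and wnt3 every neighbouring pair of groups overlapped.

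The genes also varied from pool to pool within a group, and in part together. Across all 11 libraries, 23095 wildtype replicate 1 was the lowest for 7 of the 10 identifiers, and 23095 mutant replicate 4 the highest for 4 (tbx16, msgn1, cdx4 and FGF8, ENSDARG00000003399). Within the 36433 mutants, replicate 2 was lowest for tbx16, tbx16l, tbx6, msgn1 and cdx4, and replicate 3 was highest for all 5. Within the 36433 wildtypes, replicate 3 was lowest for the same 5 genes and for cyp26a1. The gene tbx16l spread by 3.38-fold in 36433 mutants, 3.58-fold in 36433 wildtypes, 3.84-fold in 23095 mutants and 2.56-fold in 23095 wildtypes, whereas tbxta spread by at most 1.17-fold in any group.

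Ratios of counts within a library show where the genes parted company, since scaling between libraries drops out. These ratios are set against each other between libraries, since gene lengths were not used. The log2 ratio of tbx6 counts to msgn1 counts was -0.64, 1.80 and -1.16 in 23095 mutants. It was -0.26 and -1.02 in 23095 wildtypes, -0.54, -0.71 and -0.43 in 36433 mutants, and -0.16, -0.62 and -0.64 in 36433 wildtypes. The ratio was thus above 0 in 1 library of 11, the one with the fewest total counts and the highest notochord marker sum.

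The log2 ratio of tbx6 to tbx16 was -1.29, 1.27 and -0.67 in 23095 mutants against -1.85 and -1.16 in 23095 wildtypes. It was -0.56, -0.49 and -0.24 in 36433 mutants against -0.29, -0.27 and -0.62 in 36433 wildtypes. Within line 36433 this ratio kept to a narrow band while tbx6 spread by 2.32-fold and tbx16 by 1.96-fold among the mutants. The 23095 wildtypes and 23095 mutant replicates 1 and 4 were below all 36433 libraries in it.

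The log2 ratio of msgn1 to tbx16 was -0.65, -0.53 and 0.49 in 23095 mutants against -1.58 and -0.14 in 23095 wildtypes. It was -0.02, 0.22 and 0.19 in 36433 mutants against -0.12, 0.35 and 0.02 in 36433 wildtypes. The log2 ratio of tbx16 to tbxta was -1.87, -1.50 and -0.80 in 23095 mutants against -3.31 and -3.10 in 23095 wildtypes, and -1.58, -2.43 and -1.42 in 36433 mutants against -1.63, -1.78 and -2.73 in 36433 wildtypes. Set against tbxta in the same library, tbx16 was thus lowest in the 23095 wildtypes. The notochord also transcribes tbxta, and its marker sum was 7419 and 6085 CPM in 23095 wildtypes and 4292 to 5188 CPM in 36433 wildtypes. It was 3874 to 9633 CPM in 23095 mutants and 4484 to 5782 CPM in 36433 mutants. The part of notochord content in this ratio was not tested.

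**Figure D3:**
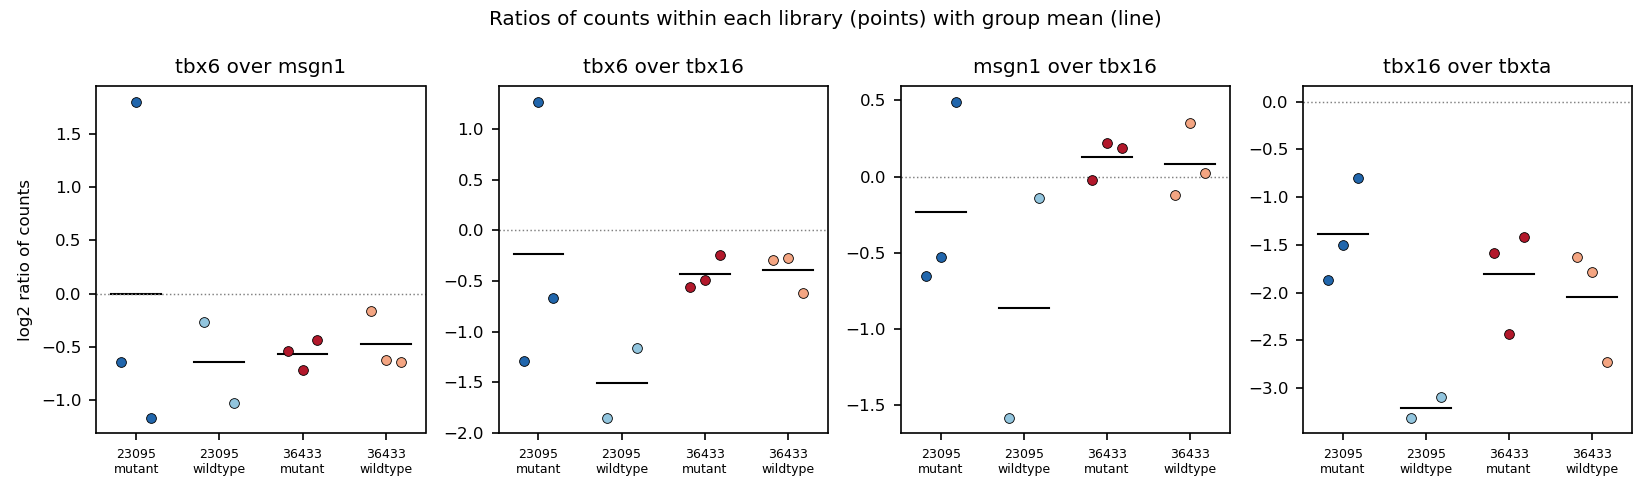
Log2 ratio of the counts of 2 genes within each library (points, in order of replicate number), with the group mean as a solid line and equality as a dotted line, for 23095 mutants, 23095 wildtypes, 36433 mutants and 36433 wildtypes from left to right. In the panel of tbx6 over msgn1, 23095 mutant replicate 2 stands alone above 0, at 1.80, and in that of tbx16 over tbxta the 23095 wildtypes lie lowest, at -3.31 and -3.10.

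The mean of the standardised log2 CPM of the 10 identifiers gave 1 shared profile over the 11 libraries. It stood at 0.03, -0.02 and 0.50 in 23095 mutants, -1.15 and -0.89 in 23095 wildtypes, 0.46, -0.01 and 0.21 in 36433 mutants, and 0.55, 0.29 and 0.04 in 36433 wildtypes. As a description over 11 libraries that share their groups and each library's scaling, Pearson's r with this profile was 0.91 for msgn1, 0.87 for tbx16, 0.86 for cdx4, 0.77 for tbx6, 0.77 for FGF8 (ENSDARG00000003399), 0.73 for tbx16l and 0.73 for cyp26a1. It was 0.26 for wnt3, -0.04 for tbxta and -0.36 for FGF8 (ENSDARG00000039615). Each gene is itself part of the mean.

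Among genes outside the 10, those most like this profile by the same r were DRG1 (0.95), FUBP1, DHRS3 (ENSDARG00000044982), znfl1l and rbmx (each 0.94), and THOC3, gpkow, AGPAT5, AP1M1 and HNRNPAB (each 0.93). By ranks of the libraries (Spearman), the correlation ran from 0.65 for HNRNPAB to 0.95 for DHRS3. The 23095 wildtypes, at -1.15 and -0.89 in the profile, weigh heavily in Pearson's r. DHRS3 also stands in the retinoic acid list, as an enzyme that turns retinaldehyde back to retinol. It had 22.7, 19.0 and 27.1 CPM in 23095 mutants against 11.4 and 15.6 CPM in 23095 wildtypes, and 34.7, 22.1 and 25.1 CPM in 36433 mutants against 27.8, 26.2 and 27.1 CPM in 36433 wildtypes. Both DHRS3 and HNRNPAB share their symbol with another identifier. Whether reads are split between identifiers of the same symbol was not tested.

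Other genes of the tailbud and presomitic mesoderm included 4 that rose in 23095 mutants. Of 36 tested, 4 were called higher and 0 lower (edgeR quasi-likelihood test), where 0.694% of all genes were called higher. In 18 every mutant library was above every wildtype library, against 16.4% of all genes, and in 4 below, against 17.4%, with a median log2 fold change of 0.44. The segmentation clock repressor gene her7 had 2.86, 2.59 and 6.83 CPM in 23095 mutants against 0.379 and 0.814 CPM in 23095 wildtypes, a log2 fold change of 2.81 (SE 0.56, adjusted p = 0.0341). The gene mespaa, a basic helix-loop-helix factor of the anterior presomitic mesoderm, had 1.79, 2.33 and 2.77 CPM in 23095 mutants against 0.252 and 0.610 CPM in 23095 wildtypes, a log2 fold change of 2.40 (SE 0.46, adjusted p = 0.0324). For her7 and mespaa the 23095 wildtypes were all under 1 CPM, so these fold changes rest on few wildtype counts.

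The protocadherin gene pcdh8 (ENSDARG00000006467, 1 of 2 identifiers with that symbol) had 75.6, 90.5 and 117 CPM in 23095 mutants against 12.6 and 40.7 CPM in 23095 wildtypes, a log2 fold change of 1.82 (SE 0.38, adjusted p = 0.0375 by the edgeR quasi-likelihood test). The Delta ligand gene dlc had 68.3, 63.1 and 83.1 CPM in 23095 mutants against 33.4 and 43.9 CPM in 23095 wildtypes, a log2 fold change of 0.89 (SE 0.20, adjusted p = 0.0449). For all 4 genes the mutants were above both wildtypes, and for pcdh8 the wildtype libraries themselves stood over 3-fold apart. Levels of pcdh8 were 78.9, 78.4 and 86.7 CPM in 36433 mutants against 86.0, 88.9 and 59.4 CPM in 36433 wildtypes. Those of dlc were 66.7, 65.9 and 68.9 CPM in 36433 mutants against 71.9, 61.1 and 47.5 CPM in 36433 wildtypes. The 23095 wildtypes were thus below all 36433 libraries for pcdh8 and dlc. In line 36433, 0 of the 36 were called, where 0.168% of all genes were, with a median of 0.0.

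For the same list, her7 had 6.25, 3.25 and 6.23 CPM in 36433 mutants against 2.50, 2.82 and 1.86 CPM in 36433 wildtypes, and mespaa had 4.22, 2.88 and 3.69 CPM in 36433 mutants against 2.50, 2.15 and 1.60 CPM in 36433 wildtypes. Both were higher in every 36433 mutant library than in any 36433 wildtype library, without passing the threshold (log2 fold changes of 1.12 and 0.78, adjusted p = 0.576 and 0.693 by the edgeR quasi-likelihood test). Of the 36 in this line, 3 had every mutant library above every wildtype library, against 7.23% of all genes, and 2 had every one below, against 6.28%. Averaged over both lines, her7 rose by 1.97 (SE 0.34, adjusted p = 0.0141) and mespaa by 1.59 (SE 0.28, adjusted p = 0.0142), the 2 called of 36, where 1.3% of all genes were called higher. In the wildtype comparison 0 of 36 were called, against 0.393% of all genes. In 15 every 23095 wildtype library was below every 36433 wildtype library, against 14.6% of all genes, and in 0 above, against 16.4%, with a median of -0.38.

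Among 35 Wnt ligands, receptors and feedback genes, 2 were called higher and 0 lower in 23095 mutants (edgeR quasi-likelihood test), where 0.694% of all genes were called higher, with a median log2 fold change of 0.16. In 13 every mutant library was above every wildtype library, against 16.4% of all genes, and in 4 below, against 17.4%. The Wnt receptor gene FZD2 had 77.3, 72.7 and 81.1 CPM in 23095 mutants against 39.3 and 49.1 CPM in 23095 wildtypes, a log2 fold change of 0.80 (SE 0.16, adjusted p = 0.0331). The gene sp5l, a zinc-finger target of Wnt signalling, had 14.2, 18.5 and 21.7 CPM in 23095 mutants against 5.87 and 9.56 CPM in 23095 wildtypes, a log2 fold change of 1.23 (SE 0.24, adjusted p = 0.0331). Both were also called in the average over the lines, at 0.49 (SE 0.10) and 0.68 (SE 0.16), where 1.3% of all genes were called higher. Mean levels in 36433 mutants and wildtypes were 64.9 and 57.3 CPM for FZD2 and 15.3 and 13.9 CPM for sp5l, with overlapping libraries. Both genes were lower in every 23095 wildtype library than in any 36433 wildtype library. These log2 differences were -0.38 (SE 0.15) for FZD2 and -0.86 (SE 0.24) for sp5l, neither of them called.

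In line 36433, 0 of the 35 Wnt genes were called (median -0.08), where 0.168% of all genes were. The smallest p there was that of dkk1b, a secreted Wnt antagonist. It had 9.29, 10.7 and 10.3 CPM in 36433 mutants against 11.2, 18.8 and 17.6 CPM in 36433 wildtypes, a log2 fold change of -0.65 (SE 0.21, adjusted p = 0.467 by the edgeR quasi-likelihood test). In the wildtype comparison dkk1b differed by -1.13 (SE 0.24, adjusted p = 0.0653), and 0 of the 35 were called (median -0.16), against 0.393% of all genes. An unadjusted p under 0.05 was reached by 6 of the 35, against 13.7% of all genes. In 9 every 23095 wildtype library was below every 36433 wildtype library, against 14.6% of all genes, and in 1 above, against 16.4%.

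These 6 calls in line 23095, of her7, mespaa, pcdh8, dlc, FZD2 and sp5l, were all lost without 23095 wildtype replicate 1 (adjusted p = 0.275 to 0.462 by the edgeR quasi-likelihood test), without 23095 mutant replicate 4 (0.0911 to 0.144), without 36433 mutant replicate 1 (0.0545 to 0.0774) and without 36433 mutant replicate 3 (0.0508 to 0.0724). They were also all lost in a fit of the 23095 libraries alone (0.121 to 0.139) and with the replicate number as a block (0.156 to 0.232). That block joins same-numbered libraries of both lines, which the labels do not link. Of the 6, 2 were called without 23095 wildtype replicate 2, 2 without 36433 mutant replicate 2, and 5 or 6 without any 1 of the other 5 libraries. The log2 fold changes over the 11 fits ran from 0.65 to 0.97 for FZD2, 0.71 to 1.1 for dlc, 0.92 to 1.63 for sp5l, 1.90 to 3.14 for mespaa and 2.17 to 3.44 for her7. That of pcdh8 ran from 1.21 without 23095 wildtype replicate 1 to 2.90 without 23095 wildtype replicate 2. All 6 were called by DESeq2.

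Fgf, retinoic acid and other T-box genes gave no call within either line. Of all genes, 1.63% were called in line 23095 and 0.168% in line 36433. Of 27 Fgf ligands, receptors and feedback genes the median log2 fold change was 0.22 in line 23095 and 0.04 in line 36433. The smallest p in line 23095 belonged to the receptor gene FGFR3, with 138, 121 and 81.5 CPM in 23095 mutants against 212 and 168 CPM in 23095 wildtypes (log2 fold change -0.74, SE 0.22, adjusted p = 0.102 by the edgeR quasi-likelihood test). The gene IL17RD, a feedback inhibitor of Fgf signalling, was higher in each of the 3 mutants (0.59, SE 0.18, adjusted p = 0.129), and the ligand gene FGF4 was lower (-0.60, adjusted p = 0.143).

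Of 19 genes for retinoic acid synthesis, breakdown and receptors, 0 were called in line 23095 (median 0.18) and 0 in line 36433 (median -0.02). The shares of all genes called were 1.63% in line 23095 and 0.168% in line 36433. Averaged over both lines 1 of 19 was called, where 2.33% of all genes were called in either direction. This was CRABP1, a retinoic acid binding protein gene, which fell by 0.70 (SE 0.16, adjusted p = 0.0438 by the edgeR quasi-likelihood test). It had 4.17, 3.50 and 4.46 CPM in 23095 mutants against 7.26 and 9.02 CPM in 23095 wildtypes, and 8.04, 9.07 and 6.15 CPM in 36433 mutants against 8.40, 12.2 and 10.1 CPM in 36433 wildtypes. Its groups overlapped in line 36433. Whether this call and those of her7, mespaa, FZD2 and sp5l in the average held in other fits is not given here. Of 13 T-box genes outside the set, 0 were called, with medians of 0.02 in line 23095 and -0.01 in line 36433.

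In 1 library the relatives of cyp26a1 stood out. In 36433 wildtype replicate 1, CYP26B1 had 21.2 CPM, CYP26C1 8.78 CPM and the pharyngeal T-box gene TBX1 7.12 CPM, against at most 5.81, 2.45 and 1.25 CPM in any of the other 10 libraries. The same library had the highest cyp26a1 of the 11, at 27.7 CPM. Without it the log2 fold change of cyp26a1 in line 36433 was -0.18.

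**Figure D4:**
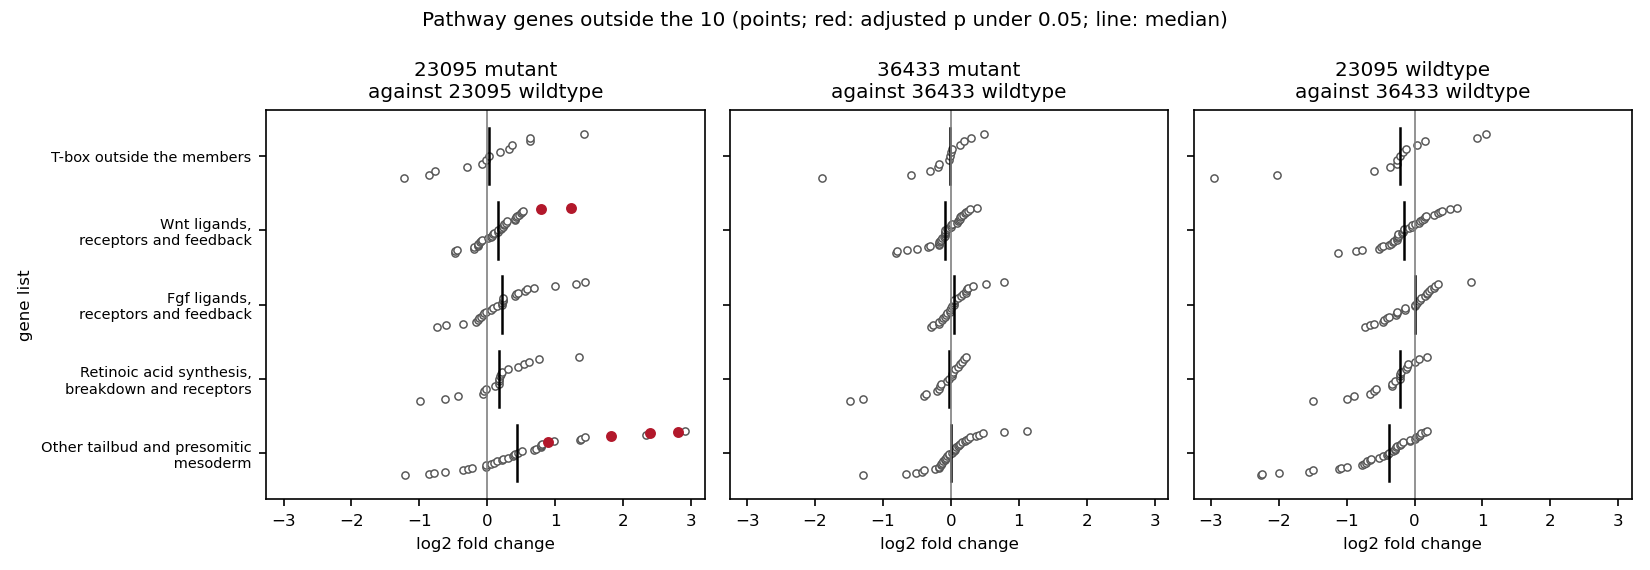
Log2 fold changes (horizontal axis, first group minus second) of listed genes outside the 10, 1 point a gene, in 3 comparisons, with red points for an adjusted p under 0.05 and a line at each list's median. Red points appear only for 23095 mutants against 23095 wildtypes, 2 among the Wnt genes and 4 among other tailbud and presomitic mesoderm genes.

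Markers of other tissues of the tail were summed alongside. For the counts of called markers, the shares of all genes called were 1.63% in line 23095 and 0.168% in line 36433. Neural tube markers (15 identifiers) came to 708 to 763 CPM in 23095 mutants against 671 to 696 CPM in 23095 wildtypes, with 0 of 15 called. Every mutant library was above every wildtype library for 4 of the 15, against 16.4% of all genes, and below for 5, against 17.4%. Epidermal markers (11 identifiers) came to 20355 to 21516 CPM in 23095 mutants against 25495 to 27089 CPM in 23095 wildtypes, with 0 of 11 called. Every mutant library was below every wildtype library for 8 of these, against 17.4% of all genes, and above for 1, against 16.4%. Endothelial markers (7 identifiers) came to 445 to 570 CPM in 23095 mutants against 340 to 346 CPM in 23095 wildtypes. Of these 7, 2 were called higher (FLI1 and tek), where 0.694% of all genes were, and in 6 every mutant library was above every wildtype library, against 16.4%. In line 36433 the endothelial sum was 313 to 382 CPM in 36433 mutants against 275 to 300.3 CPM in 36433 wildtypes, with 0 of 7 called. Red blood cell markers had 0 of 7 called within either line. Their sum was 713 to 1276 CPM in 23095 mutants against 288 to 1153 CPM in 23095 wildtypes. The part of epidermal or endothelial content in the differences of the tailbud genes was not tested. None of these markers was at 0 in every library of a group.

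**Figure D5:**
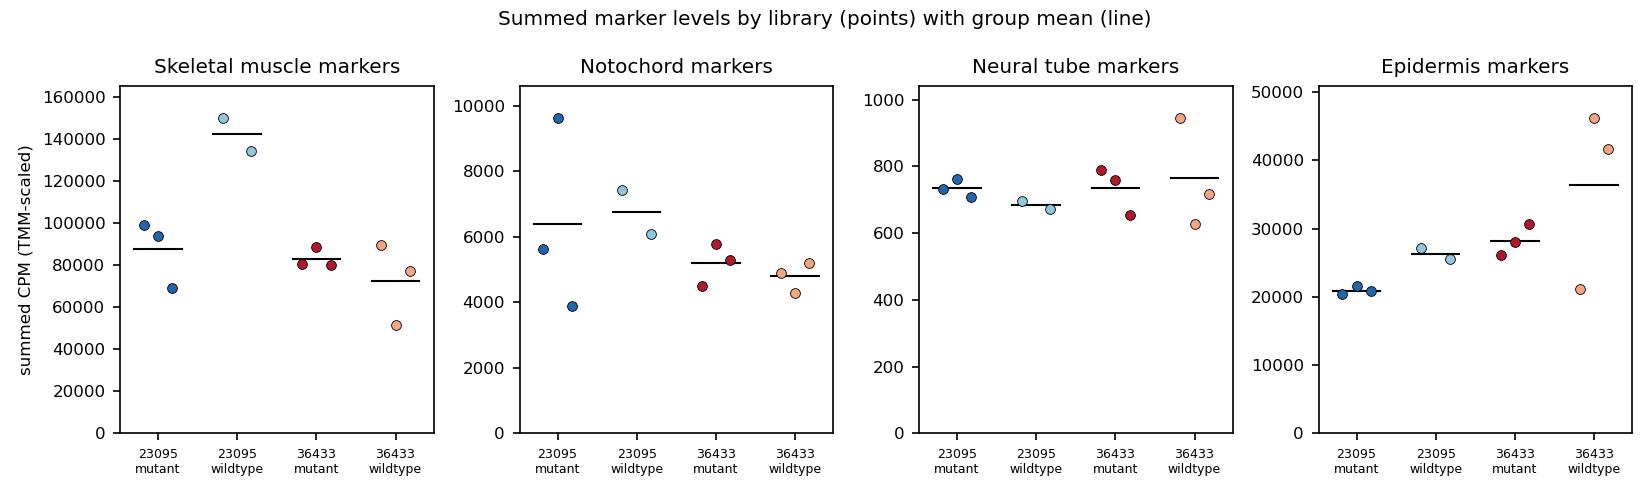
Summed TMM-scaled CPM of marker genes of 4 tissues (vertical axes, from 0) in each library (points, in order of replicate number), with the group mean as a line, for 23095 mutants, 23095 wildtypes, 36433 mutants and 36433 wildtypes from left to right. The 23095 wildtypes lie at 150076 and 134406 CPM for skeletal muscle, above the other 9 libraries.

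The authors' deposited table for line 23095 gave 4 of the 10 an adjusted p under 0.05, where 4.64% of its genes with an adjusted p had one. In the authors' deposited table these were tbx16 with a log2 fold change of 1.39 (adjusted p = 4.46e-05), tbx6 with 1.06 (0.00155), msgn1 with 0.92 (0.0119) and cdx4 with 1.06 (0.00378). The authors' deposited tables gave 0 of 10 for line 36433, 2 of 10 between the wildtypes and 0 of 10 between the mutants. Of their genes with an adjusted p, 0.573%, 2.52% and 2.5% were under 0.05, in the same order. Over those 4 comparisons, the adjusted p in the authors' deposited tables equalled that of DESeq2 run here to 3 digits in 40 of 40 values, while their log2 fold changes were smaller in size in 37 and equal at 2 decimals in 3.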

How the data were processed

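The authors deposited raw counts per Ensembl gene identifier and library, and tables of their own comparisons with log2 fold changes and adjusted p-values per the file headers; 4 of these tables were set beside the results. Per the submitters' processing notes, the build was GRCz11, and the tools included STAR 2.7.2c, cutadapt 1.16 and DESeq2 1.22.2. Neither the counting tool nor the annotation is given in the sources used here. Per the labels' protocols, libraries came from a stranded total RNA kit with removal of ribosomal RNA, read as pairs of 150 bases.

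Counts of all genes were fitted with edgeR 4.0.16 in R 4.3.3 (filterByExpr with minimum count 10 and minimum total 15, TMM, glmQLFit and glmQLFTest, two-sided) as 1 model of 4 group means over 11 libraries, leaving 7 residual degrees of freedom. P-values were adjusted by Benjamini-Hochberg over 20886 genes and called under 0.05. Standard errors (SE) were taken from the F statistic. What the p-values reflect is the spread between pools, which may be technical. The script was tested on simulated data. Other settings tried were library totals or DESeq2's size factors as scaling, no filter, a fit of only the groups compared, a filter of 1 CPM in 3 libraries, a replicate block, DESeq2 1.42.0, and fits without each library. Where that left 1 library in a group, it was assumed to vary like the others. Standardised profiles used log2 CPM with prior count 2.

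The genes and all lists were chosen with earlier results of these data known. The text names every gene of the set, up to 4 genes of each pathway list with the smallest p in line 23095 and up to 2 in line 36433, and up to 10 genes most like the set's mean profile whose mean log2 CPM is 1 or more. Symbols follow the gene name table, in upper case where it gives the human style, and were matched directly or by human ortholog symbol. RefSeq synonyms (assembly GRCz12tu) were also tried and gave no match. Of 140 pathway symbols asked, 132 were matched. The Delta ligand dld was left unmatched, since the symbol DLD in that table is also the name of dihydrolipoamide dehydrogenase. Reads may be split between genes with near-identical copies.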

Additional observations from a re-analysis of the deposited data

How the results depend on the processing

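Limits of the design are 2 wildtype libraries in line 23095, wide spread of tbx6, msgn1 and tbx16l between pools, and counts as low as 14 for wnt3 and 2 for FGF8 (ENSDARG00000039615), where only large differences could be detected. The number of the 10 called in 23095 mutants against wildtypes, 2, was 4 with DESeq2, 0 with only the groups compared, 0 with the replicate block and 0 to 3 when each library was left out. Averaged over the lines, 1 was called, against 2 with library totals alone, 3 with DESeq2, 0 with the replicate block and 0 to 3 when each library was left out. Between the wildtypes, DESeq2 called 2 in place of 0. The number stayed at 0 for line 36433, the difference between lines and the mutants under each alternative. Of all genes, 340 were called in line 23095, against 968 with DESeq2, 6 with only the groups compared and 9 with the replicate block, and 35 in line 36433, against 122 with DESeq2 and 22 with the replicate block. Averaged over the lines 486 were called, against 1049 with DESeq2 and 108 with the block. The difference between lines gave 2, against 58 with DESeq2 and 0 with the block. The wildtypes gave 82, against 548 with DESeq2 and 52 with only the groups compared, and the mutants 235, against 555 with DESeq2 and 64 with the block. Leaving out 1 library moved the count to 4 (without 23095 wildtype replicate 1) to 619 (without 36433 wildtype replicate 1) in line 23095, and between the same 2 fits to 56 to 1439 in the average and 21 to 301 between the wildtypes. It gave 12 (without 36433 mutant replicate 3) to 64 (without 36433 wildtype replicate 1) in line 36433, 65 (without 36433 mutant replicate 2) to 384 (without 36433 wildtype replicate 1) between the mutants, and 0 to 4 in the difference between lines. The labels do not say what the replicate numbers mean, so calls lost with the block cannot show that same-numbered pools were related. Same-numbered pairs had correlations of deviations from the group means of 0.20, 0.08 and 0.02 in line 36433 and -0.08 and -0.18 in line 23095. Those of different-numbered pairs ran from -0.20 to 0.16 in line 36433 and from -0.15 to 0.18 in line 23095. Deviations within such small groups are tied to each other, so these values cannot decide whether same-numbered pools were related. With library totals alone the median log2 fold change of all genes in line 23095 was 0.14, against 0.02 with TMM, and msgn1 was called (adjusted p = 0.0435 by the edgeR quasi-likelihood test). Signs turned only for values that were not called. With library totals alone these were WNT10B (0.02) and vox (0.11) in line 23095, wnt3 (0.01) and cyp26a1 (0.07) in the average, and tbxta (0.06) in the difference between lines, which was 0.0 with DESeq2's size factors and with no filter. With the replicate block they were WNT10B (0.31) in line 23095, cyp26a1 (0.01) in the average, tbxta (0.06) in the difference, and tbxta (0.03), msgn1 (-0.72), FGF8 (ENSDARG00000003399, -0.06) and cdx4 (-0.15) between mutants. Only 23095 mutant replicate 4 bears the number 4, so the block fitted that library by its own term. Without that library, values between mutants were -0.67 for msgn1, -0.08 for FGF8 (ENSDARG00000003399) and -0.12 for cdx4. That of tbxta was then -0.03, with no turn of sign. The cause of the sign changes was not tested. When each library was left out, log2 fold changes that turned sign ran, in line 36433, from -0.02 to 0.10 for tbxta, -0.54 to 0.40 for tbx16l, -0.09 to 0.49 for tbx6, -0.55 to 0.15 for wnt3, -0.08 to 0.13 for cdx4, -1.23 to 0.03 for tbx21, -2.41 to 0.12 for TBX1, -0.14 to 0.0 for WNT4, -0.25 to 0.16 for NKD2, -0.26 to 0.18 for FGF10, -0.19 to 0.15 for DHRS3, -0.17 to 0.13 for CRABP2 (ENSDARG00000030449), -1.92 to 0.07 for CYP26B1 and -0.10 to 0.16 for pcdh8. In line 23095 they ran from -0.06 to 0.10 for tbxta, -0.12 to 0.11 for wnt3, -0.11 to 0.58 for TBX1, -0.48 to 0.28 for WNT10B, -0.23 to 0.53 for CYP26C1 and -0.24 to 0.27 for vox. In the average they ran from -0.02 to 0.06 for tbxta, -0.27 to 0.08 for wnt3, -0.36 to 0.02 for FGF8 (ENSDARG00000039615) and -0.13 to 0.12 for cyp26a1, and in the difference from -0.08 to 0.08 for tbxta and -0.13 to 0.54 for wnt3. Between wildtypes they ran from -0.15 to 0.01 for tbxta. Between mutants they ran from -0.54 to 0.46 for tbx16l, -0.08 to 1.34 for tbx6, -0.67 to 0.55 for msgn1, -0.59 to 0.09 for wnt3, -0.08 to 0.53 for FGF8 (ENSDARG00000003399), -0.12 to 0.65 for cdx4 and -0.20 to 0.13 for cyp26a1.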
